A study of Mus musculus with 8 samples.

Results

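The aminoacyl-tRNA synthetases and their scaffold proteins were followed in leukaemic cells exposed to a block of pyrimidine synthesis. The group holds 39 genes, taken by their symbols from the 54838 genes of the count table: 20 cytosolic synthetases, 16 mitochondrial synthetases (symbols ending in 2) and the 3 scaffold proteins Aimp1, Aimp2 and Eef1e1. The choice by symbol uses no measured value, and all 39 genes passed the filter on low counts. The cells were mouse acute myeloid leukaemia (AML) cells on a C57BL/6 background that carried the RUNX1-RUNX1T1 fusion, a core-binding factor oncogene, in both groups alike. They had been transplanted into Ptprca recipients, whose own blood cells remain beside the leukaemia. The labels call the recipients sub-lethally irradiated, whereas the study's methods name irradiation for its other leukaemia models only. The cells were isolated by cell sorting, in the study's methods by high cKit and low CD11b. For this model its results name high cKit alone, and a legend names cells with cKit and without CD11b. The 4 Vehicle samples came from mice without the drug, and the 4 AG636 samples from mice given AG636, an inhibitor of the pyrimidine synthesis enzyme DHODH, by mouth b.i.d. at 100 mg/kg. The labels name bone marrow and spleen without saying which sample came from which, and they give neither the length of treatment, the age or sex of the mice, nor whether each sample is a separate mouse. The study's own sources differ on the length of treatment, and one of its legends names fewer RUNX1-RUNX1T1 mice in a group than there are samples here. The p-values measure the spread between these samples, part of which may be technical, and would be too small if samples share a mouse.

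Aminoacyl-tRNA synthetases join an amino acid to its matching transfer RNA, the step that sets which residue a codon stands for, and every protein a cell makes draws on their products. Cytosolic enzymes serve cytoplasmic translation, and a largely separate nuclear-encoded set is imported into mitochondria to translate the few proteins of the respiratory chain that the organelle encodes. Several cytosolic enzymes are held in the multisynthetase complex by the scaffolds Aimp1, Aimp2 and Eef1e1, and many cytosolic synthetase genes are known targets of ATF4, the transcription factor of the amino acid response.

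The samples held 6120030 to 7162036 counts, with 16141 to 18049 genes detected, and the 39 genes took 0.364% to 0.395% of all counts in the Vehicle samples and 0.314% to 0.342% in the AG636 samples. Of the markers of immature myeloid cells, Kit, the receptor used in the sort, lay at 153 to 252 CPM (counts scaled to a common library size) and the progenitor factor Myb at 388 to 717 CPM, but the granule protein genes were nearly absent, Mpo lying at 0.467 to 4.77 CPM. All 8 erythroid markers passed the filter, with Gata1 at 196 to 266 CPM and a summed level of 4697 to 8520 CPM in the Vehicle and 7517 to 8776 CPM in the AG636 samples, so the cells are called by their label below and not by a lineage. Of the marker lists, the 5 tested B cell genes included the only marker past the threshold, Cd79a, which was higher with AG636. The summed B cell level was 5.38 to 14 CPM in the Vehicle and 11.01 to 23.0 CPM in the AG636 samples. The summed T and NK cell level was 6.85 to 14.9 and 9.64 to 25.5 CPM, that of mature myeloid cells 96.5 to 152.8 and 53.0 to 248.5 CPM, and that of immature myeloid cells 564 to 702 and 639 to 949.9 CPM, and the part of these in the results below was not tested.

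Synthetase transcripts were lower in AG636-treated cells, and most of those that fell encode cytosolic enzymes. Of the 39 genes, 13 fell and 0 rose in the limma-voom test (adjusted p under 0.05 over the 10911 genes tested), against 8.49% of all genes tested that were called lower and 5.47% that were called higher. The count of 0 higher was the same by edgeR and DESeq2. In limma-voom 21 of the 39 had an unadjusted p under 0.05, beside 3351 of all 10911 genes tested. The fitted log2 fold change was negative for 34 of the 39, with a median of −0.32 beside −0.0056 over all genes tested. By compartment, 10 of 20 cytosolic synthetases fell with a median of −0.40, 2 of 16 mitochondrial synthetases fell with a median of −0.12, and 1 of 3 scaffold genes fell with a median of −0.32; the difference between compartments was not tested. With library size alone as the scale, the split over all genes changed from 926 lower and 597 higher to 571 lower and 918 higher, and 7 of the 39 fell with 0 higher. Changes were modest in size: the cytosolic log2 fold changes ran from −0.61 to 0.07 and the mitochondrial from −0.48 to 0.12. Leaving out a single sample changed the count of 13 to 6 without Vehicle 4, to 7 without Vehicle 1 or Vehicle 2 and to 8 without Vehicle 3 or AG636 1, while the 1523 calls over all genes became 688 to 1010 without each Vehicle sample. In sorted bulk samples, fewer cells of a type and less RNA per cell cannot be told apart.

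**Figure D1:**
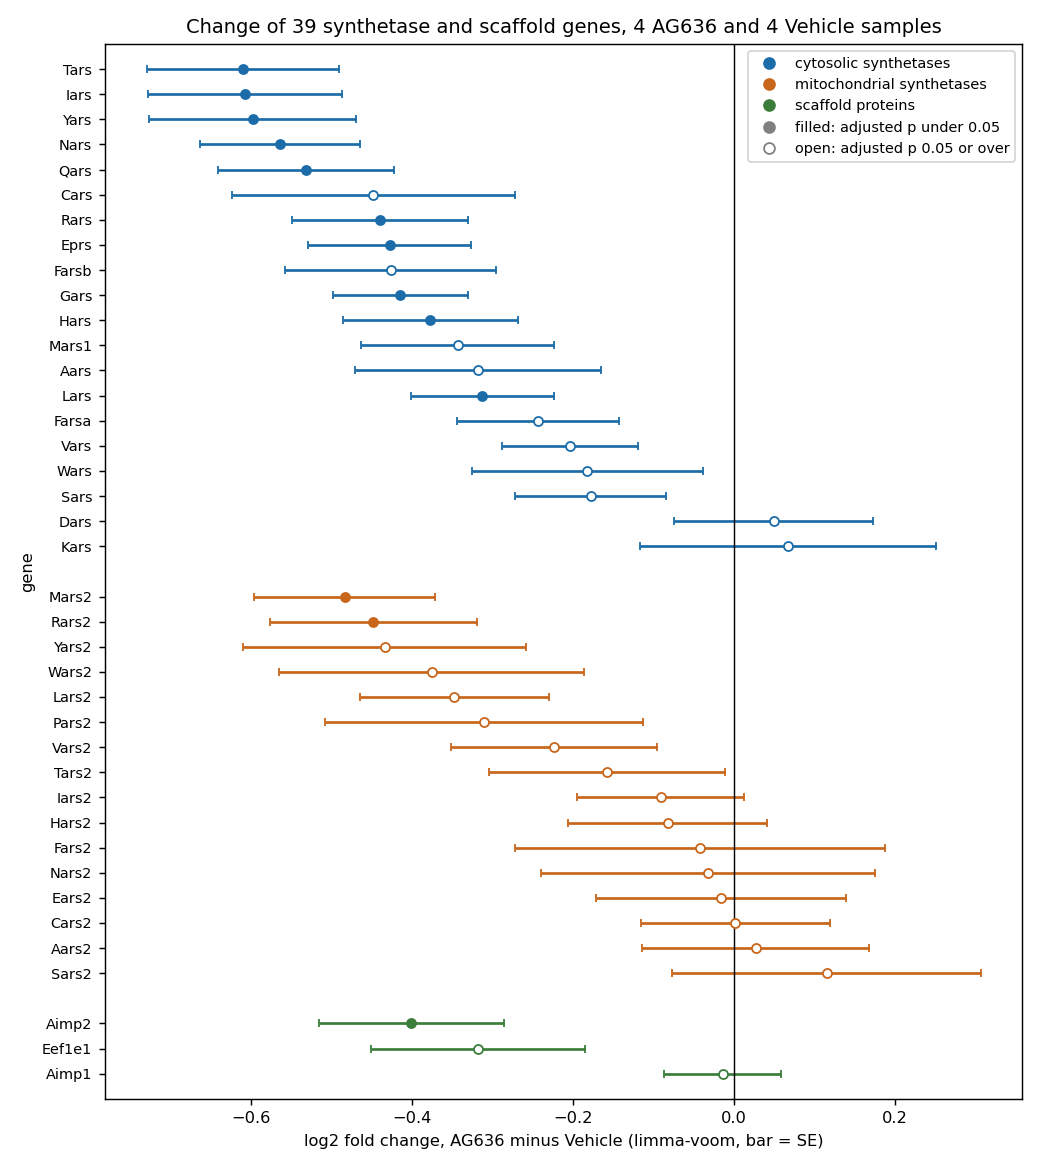
Log2 fold change (AG636 minus Vehicle, limma-voom, 4 samples each) on the x axis for the 39 genes, ordered within cytosolic, mitochondrial and scaffold genes, with bars for the SE and filled points for an adjusted p under 0.05. The filled points all lie left of 0, 10 of them cytosolic, and Dars and Kars are the cytosolic genes to the right of 0.

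Summed levels of the gene groups were also lower in each AG636 sample. The summed CPM of the 20 cytosolic synthetases was 3069.8, 3045, 3080.4 and 3219 in Vehicle samples 1 to 4 and 2453, 2545, 2413 and 2603 in AG636 samples 1 to 4, so every AG636 sample lay below every Vehicle sample. The 16 mitochondrial synthetases summed to 429 ± 12.1 CPM in the Vehicle (419.7 to 445) and 382 ± 23.2 CPM in the AG636 samples (355 to 403; SD, n = 4 each), which also did not overlap, over a smaller step. The scaffold genes summed to 327 ± 14.4 CPM (305 to 336) and 293 ± 2.87 CPM (291 to 297). Gene by gene, the AG636 values lay wholly below the Vehicle values for 14 of 20 cytosolic, 4 of 16 mitochondrial and 1 of 3 scaffold genes, 19 of 39 in all, where 12.9% of all genes tested did so, and wholly above for 0 of 39, where 9.35% of all genes tested did so.

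**Figure D2:**
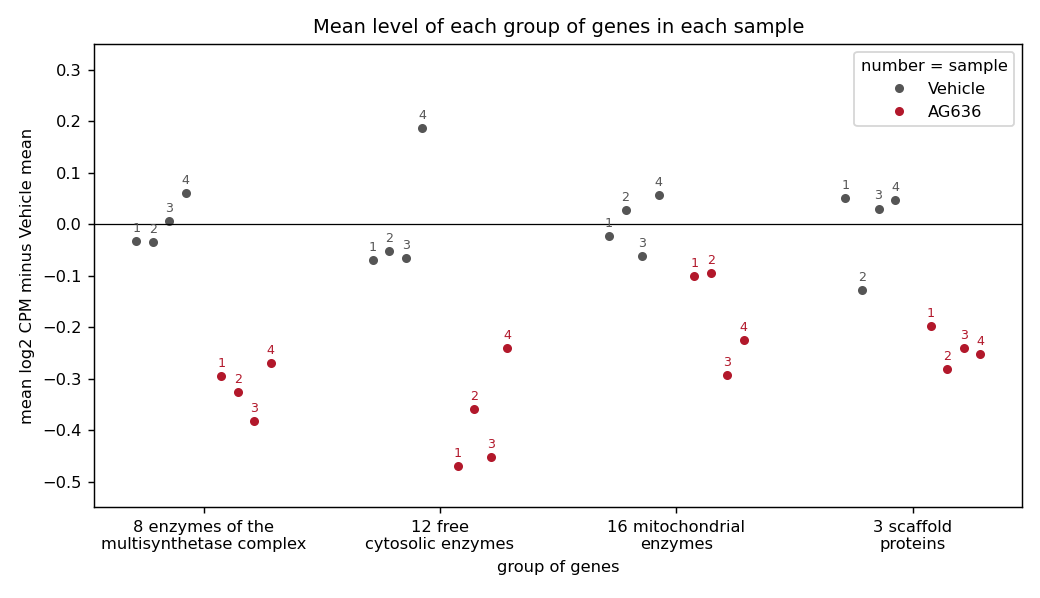
Mean log2 CPM of each gene group in each sample, as the difference from the Vehicle mean of that group on the y axis, with a numbered point for each of the 4 Vehicle and 4 AG636 samples. The AG636 points lie below the Vehicle points in every group, and Vehicle 4 stands above the other Vehicle samples for the free cytosolic enzymes.

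Among cytosolic enzymes that work outside the multisynthetase complex, the asparaginyl, threonyl, glycyl, tyrosyl and histidyl enzymes fell. Nars, which charges tRNA with asparagine, lay at 212, 195, 202 and 244 CPM in Vehicle samples 1 to 4 and at 135, 136, 166 and 141 CPM in AG636 samples 1 to 4. Tars, the threonine enzyme, lay at 169, 163, 195 and 213 CPM against 116, 102, 124 and 141 CPM. Yars, the tyrosine enzyme, lay at 44.3, 43.5, 46.9 and 56.3 CPM against 29.4, 33.0, 26.6 and 36.9 CPM. In these 3 genes the groups were apart, and Vehicle 4 was the highest of all samples. The log2 fold change was −0.56 (SE 0.10, limma-voom adjusted p = 0.0059) for Nars, −0.61 (SE 0.12, adjusted p = 0.0092) for Tars and −0.60 (SE 0.13, adjusted p = 0.0136) for Yars, which left 67.6%, 65.5% and 66.0% of the mean Vehicle CPM. Yars shares 30 bases of exon with the opposite-strand gene C77080, and whether counting used strand was not stated.

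Gars, the glycine enzyme, which serves both cytosol and mitochondria from a single gene, lay at 122, 121, 128 and 141 CPM against 91.8, 99.6, 90.8 and 101 CPM, which gave −0.42 on the log2 scale (SE 0.084, limma-voom adjusted p = 0.0106). Hars, the histidine enzyme, lay at 74.2, 71.5, 69.2 and 82.5 CPM against 60.5, 59.2, 47.1 and 62.6 CPM, which gave −0.38 (SE 0.11, adjusted p = 0.0420). Both sets of values were without overlap, but they differ in how firmly the call stood. Gars, Nars, Tars and Yars were past the threshold with any 1 sample left out, whereas Hars was past it only without AG636 4 (adjusted p = 0.0452) and at 0.0584 to 0.122 without each other sample. Hars also shares 195 bases of exon with Hars2 on the opposite strand.

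The other 7 free cytosolic enzymes did not pass the test, though all had negative log2 fold changes. The largest was that of the cysteine enzyme Cars, at 33.4, 32.7, 32.7 and 53.7 CPM against 27.5, 32.2, 23.8 and 26.2 CPM, a log2 fold change of −0.45 (95% interval −0.84 to −0.06, adjusted p = 0.113) that was −0.26 without Vehicle 4. Farsb, the beta subunit of the phenylalanine enzyme, was at −0.43 (adjusted p = 0.0535) and its alpha subunit Farsa at −0.24 (adjusted p = 0.128). The alanine, serine, tryptophan and valine enzymes Aars, Sars, Wars and Vars were at −0.32, −0.18, −0.18 and −0.20, and Aars was at −0.14 without Vehicle 4. Aars shares 1326 bases of exon with Exosc6 on the same strand, and Exosc6 had 0 counts over the 8 samples.

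Within the multisynthetase complex, 5 of the 8 synthetase genes fell (median log2 fold change −0.39), beside 5 of the 12 free enzymes (median −0.40). No test of the difference between them was made. Iars, the isoleucine enzyme, lay at 98.8, 99.4, 112 and 136 CPM in the Vehicle and 67.0, 70.4, 69.9 and 84.0 CPM in the AG636 samples. Qars, the glutamine enzyme, lay at 139, 146, 138 and 128 CPM against 87.2, 118, 95.7 and 83.8 CPM. Neither gene's groups overlapped, and in Qars, unlike Iars, Vehicle 4 was the lowest Vehicle sample. The log2 fold changes were −0.61 (SE 0.12, limma-voom adjusted p = 0.0100) for Iars and −0.53 (SE 0.11, adjusted p = 0.0113) for Qars, and both were past the threshold with any 1 sample left out.

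Eprs encodes the fused glutamate and proline enzyme and lay at 362, 389, 374 and 468 CPM against 267, 297, 289 and 328 CPM. Rars, the arginine enzyme, lay at 125, 125, 131 and 139.8 CPM against 106, 77.9, 93.8 and 108 CPM. Lars, the leucine enzyme, which also senses leucine for mTORC1, lay at 153, 149, 153 and 184 CPM against 134, 121, 129 and 129 CPM. In each of these genes the lowest Vehicle sample was above the highest AG636 sample. The log2 fold change was −0.43 (SE 0.10, limma-voom adjusted p = 0.0199) for Eprs, −0.44 (SE 0.11, adjusted p = 0.0242) for Rars and −0.31 (SE 0.089, adjusted p = 0.0405) for Lars. These calls depended on single samples: Eprs missed the threshold without Vehicle 2 (adjusted p = 0.0501), Vehicle 4 (0.0531) or AG636 1 (0.0529), Rars without any 1 of the Vehicle samples (0.0518 to 0.0722), and Lars without any 1 of the 8 samples (0.0523 to 0.109).

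The lysine, aspartate and methionine enzymes of the complex did not pass. Kars, the most abundant of the 39 genes in the mean of either group, lay at 588, 519, 544 and 306 CPM in the Vehicle and 543, 546, 485 and 425 CPM in the AG636 samples, so that Vehicle 4 was the lowest of all 8 samples. Its log2 fold change of 0.07 had a 95% interval of −0.34 to 0.47 and became −0.13 without Vehicle 4. Dars was at 0.05 (95% interval −0.22 to 0.32), and Mars1, the methionine enzyme, was at −0.34 (adjusted p = 0.0809, limma-voom) and shares 68 bases of exon with Ddit3 on the opposite strand.

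Of the 3 scaffold genes, Aimp2 fell and the other two did not pass the test. Aimp2, which holds the complex together, lay at 78.5, 79.8, 89.0 and 91.9 CPM in the Vehicle and 59.4, 54.1, 68.5 and 76.0 CPM in the AG636 samples, and its log2 fold change was −0.40 (SE 0.12, limma-voom adjusted p = 0.0421). Aimp1, which binds the arginine enzyme and tRNA, lay at 191, 177, 185 and 182 CPM against 176, 191, 187 and 175 CPM, and Eef1e1 at 66.3, 48.7, 58.2 and 59.2 CPM against 56.9, 48.2, 42.4 and 39.75 CPM. The groups were apart in Aimp2 and interleaved in the other two. Aimp1 had a log2 fold change of −0.01 with a 95% interval of −0.17 to 0.15, the narrowest of the 39 genes, and Eef1e1 was at −0.32 (95% interval −0.61 to −0.02, adjusted p = 0.133). The Aimp2 call was kept only without AG636 3 or AG636 4 (adjusted p = 0.0410 and 0.0207) and was at 0.0708 to 0.118 without each other sample. Aimp2 shares 487 bases of exon with Eif2ak1, a kinase gene of the opposite strand with 5809 counts over the 8 samples beside 3913 for Aimp2.

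**Figure D3:**
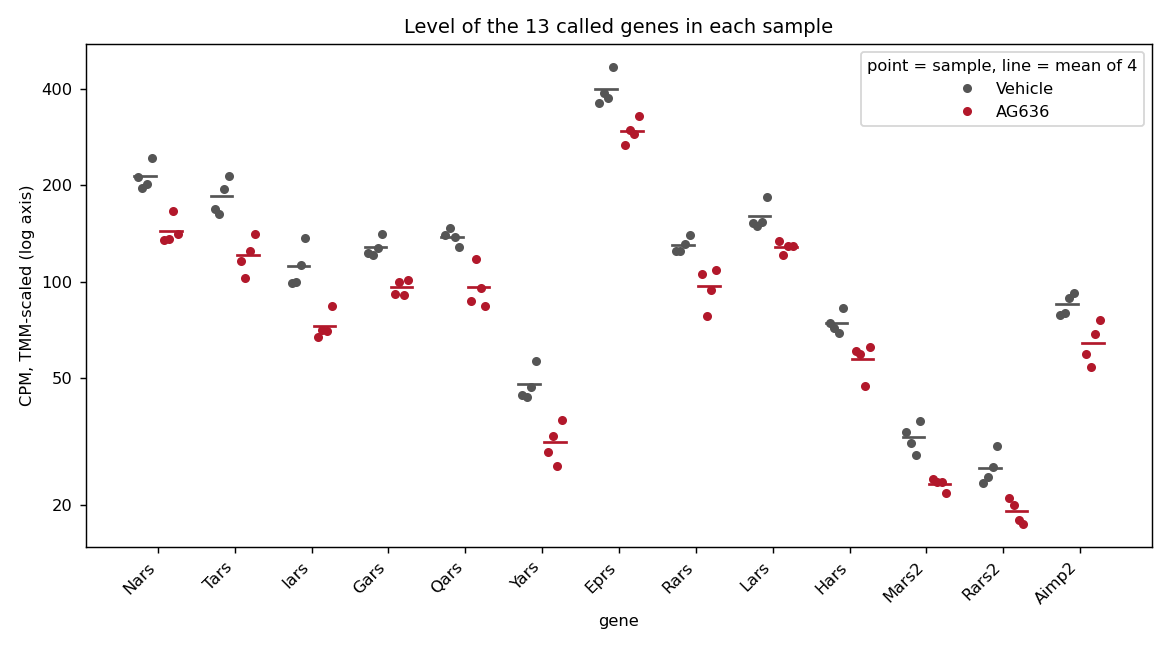
TMM-scaled CPM on a log axis for the 13 genes called lower, with a point per sample and a line at the mean of 4 Vehicle or 4 AG636 samples. The groups do not overlap in any of the 13 genes, from Rars2 at 17.5 to 30.7 CPM to Eprs at 267 to 468 CPM.

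Of the 16 mitochondrial synthetases, the methionine and arginine enzymes fell. Mars2 lay at 33.9, 31.4, 28.8 and 36.8 CPM in the Vehicle and 24.3, 23.6, 23.6 and 21.8 CPM in the AG636 samples. Rars2 lay at 23.5, 24.6, 26.3 and 30.7 CPM against 21.2, 20.1, 18.03 and 17.5 CPM. Both were low beside their cytosolic relatives but without overlap between groups. The log2 fold changes were −0.48 (SE 0.11, limma-voom adjusted p = 0.0186) and −0.45 (SE 0.13, adjusted p = 0.0417). Mars2 missed the threshold without Vehicle 1 (adjusted p = 0.0578) or Vehicle 4 (0.0546), and Rars2 without any 1 of the 8 samples (0.0559 to 0.113).

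The other 14 mitochondrial genes did not pass, and their log2 fold changes spread over both signs. Lars2 at −0.35 (adjusted p = 0.0726, limma-voom) and Wars2 at −0.38 (adjusted p = 0.206) had groups without overlap, and Yars2 was at −0.43 (adjusted p = 0.122). Pars2, Vars2 and Tars2 followed at −0.31, −0.22 and −0.16. Near 0 lay Iars2 at −0.09, Hars2 at −0.08, Fars2 at −0.04, Nars2 at −0.03, Ears2 at −0.02, Cars2 at 0.00 and Aars2 at 0.03, and Sars2 was highest at 0.12. Several of these genes are scarce. Nars2 lay at 12.1, 8.45, 12.4 and 12.2 CPM in the Vehicle and 12.3, 14.4, 9.73 and 8.38 CPM in the AG636 samples, with a 95% interval of −0.49 to 0.42. Iars2 was more abundant, at 118, 93.8, 112 and 107 CPM against 114, 106, 92.4 and 92.1 CPM, and its 95% interval was −0.32 to 0.14. Iars2 shares 2034 bases of exon with Rab3gap2, and Cars2 422 bases with Naxd, each on the opposite strand.

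Where a cytosolic enzyme and a mitochondrial enzyme charge tRNA with the same amino acid, 16 pairs could be set side by side, Eprs standing against both Ears2 and Pars2 and the subunit Farsa against Fars2. A QuantSeq library gives a read from the 3′ end of a transcript, so CPM can be compared between genes with little dependence on transcript length. The cytosolic gene was the more abundant of the pair in the Vehicle mean in 16 of 16 pairs, from 1.04-fold (Iars and Iars2) to 43.3-fold (Eprs and Pars2). Without Vehicle 4 this held in 15 of 16 pairs, since Iars then averaged 103.5 CPM and Iars2 107.9 CPM, a ratio of 0.960. The cytosolic log2 fold change was the more negative in 11 of 16 pairs, and the mitochondrial was so for Lars2, Mars2, Rars2, Vars2 and Wars2. The difference between partners was not tested.

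**Figure D4:**
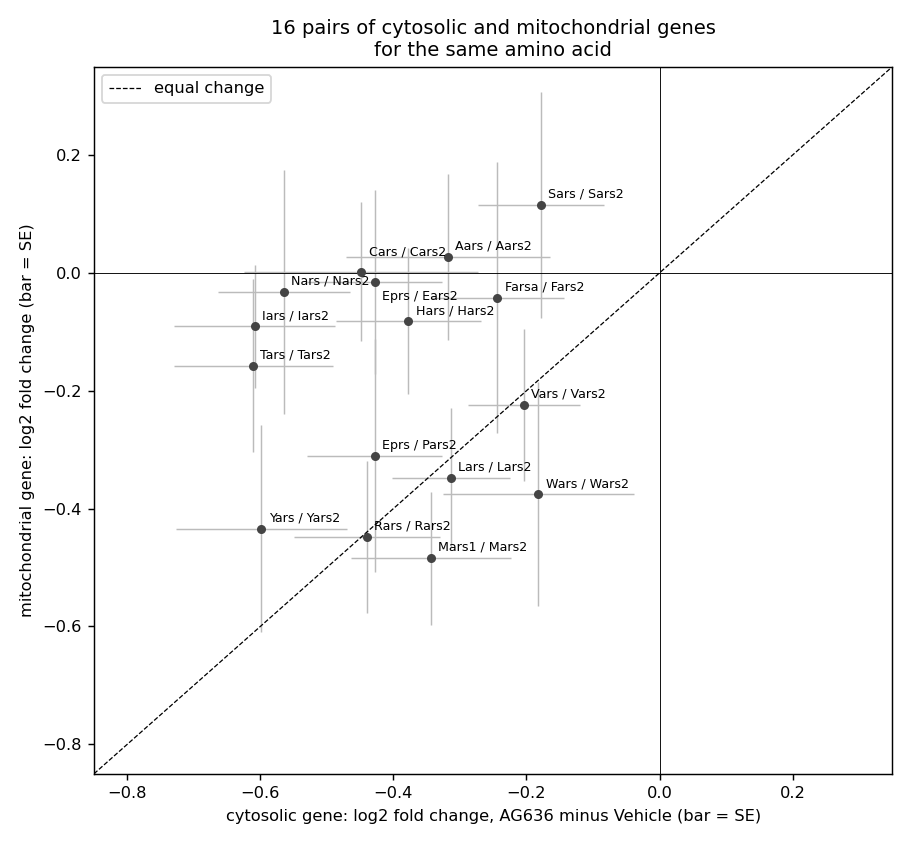
Log2 fold change (AG636 minus Vehicle) of the cytosolic gene on the x axis and of its mitochondrial partner on the y axis for 16 pairs, with bars for the SE and a dashed line of equal change. Tars, Iars and Nars lie far to the left with Tars2, Iars2 and Nars2 between −0.16 and −0.03, and Mars1, Rars, Lars, Vars and Wars lie below the line with their partners.

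For isoleucine and cysteine the enzymes of both compartments lay at similar levels in the Vehicle samples. Iars and Iars2 averaged 112 and 108 CPM in the Vehicle samples, and with AG636 the ratio of Iars to Iars2 was 0.720. The ratio of Cars to Cars2 was 1.12 in the Vehicle and 0.810 in the AG636 samples, and it was the only ratio of the 16 whose sample values did not overlap, though neither gene passed the test. For threonine, Tars2 lay at 32.2, 27.2, 32.3 and 28.9 CPM against 21.5, 27.3, 25.7 and 34.7 CPM, so its groups overlapped (log2 fold change −0.16, 95% interval −0.48 to 0.17) where those of Tars did not. Rars and Rars2, both called lower, had a ratio of 4.95 in the Vehicle and 5.03 in the AG636 samples.

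A single Vehicle sample stood high across the cytosolic group. Vehicle 4 was the highest Vehicle sample for 14 of 20 cytosolic, 6 of 16 mitochondrial and 1 of 3 scaffold genes, against 32.0% of all genes tested. It stood out in the cytosolic enzymes listed as ATF4-responsive (Aars, Cars, Eprs, Gars, Iars, Lars, Mars1, Nars, Sars, Tars, Wars and Yars). Of these, Vehicle 4 was the highest Vehicle sample in 11 of 12, with a median log2 difference of 0.30 from the other Vehicle samples. In the other 8 cytosolic enzymes it was highest in 3 and lowest in 4, with a median of 0.02. The list was chosen with earlier results of these data known, so this contrast is descriptive, and it was not tested. Atf4 itself lay at 172, 170.3, 196 and 256 CPM in the Vehicle and 123, 146, 136 and 178 CPM in the AG636 samples, a log2 fold change of −0.44 that did not pass in limma-voom (adjusted p = 0.0716) and was −0.29 without Vehicle 4. It passed in DESeq2 (adjusted p = 0.0468) and with the replicate number as a block (adjusted p = 0.0175), with a range of 0.0175 to 0.218 over the alternatives. Vehicle 4 was the highest sample for Atf4 too, but the amino acid response list did not move as one in that sample. The log2 difference of Vehicle 4 from the other Vehicle samples was 0.52 for Atf4, 0.755 for Trib3, 0.48 for Psat1 and 0.30 for Ddit3. For Asns it was 0.003, for Eif2ak4 −0.26, for Phgdh −0.34, for Sesn2 −0.68 and for Chac1, too scarce to be tested, −1.43. Vehicle 4 also had the lowest summed erythroid level of all samples, 4697 CPM beside 5924 to 8520 CPM in the other Vehicle samples. Its B cell level was higher than in the other Vehicle samples, and the part of either in the synthetase levels was not tested.

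Without Vehicle 4, 6 of the 13 calls were kept, all cytosolic, and the medians were −0.28 for cytosolic, −0.12 for mitochondrial and −0.29 for scaffold genes. The 6 genes were Gars, Iars, Nars, Qars, Tars and Yars, and the same 6 were past the threshold under all 18 alternative settings tried. By response class with all samples, 7 of the 12 ATF4-responsive enzymes fell (12 of 12 negative, median −0.42) and 3 of the other 8 (median −0.31). Without Vehicle 4, 5 of the 12 fell (median −0.29) and 1 of the other 8 (median −0.28). By structural class with all samples, 5 of 9 class I cytosolic enzymes fell (median −0.44) and 4 of 10 class II enzymes (median −0.35). Eprs holds an enzyme of each class in a single chain. Without Vehicle 4, 3 of 9 class I enzymes fell (median −0.26) and 3 of 10 class II enzymes (median −0.28). Over all genes tested, 8.49% were called lower with all samples, and 592 of 11085 without Vehicle 4. The differences between these classes were not tested.

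To show the sequence in which the transcripts that fell begin, the promoters of Tars, Iars, Gars and Qars, which are among the genes called lower in all of these settings, are printed beside those of Cars2 and Aimp1, whose log2 fold changes were nearest 0 among mitochondrial and scaffold genes. Each runs from 250 bases before to 50 after the RefSeq start, 5′ to 3′ on the strand of the gene, in GRCm38.p6. Tars is chr15:11399609-11399908 (minus strand), Iars chr13:49681880-49682179 (plus), Gars chr6:55037751-55038050 (plus), Qars chr9:108507755-108508054 (plus), Cars2 chr8:11550722-11551021 (minus) and Aimp1 chr3:132684341-132684640 (minus). Capitals mark matches on either strand to CACGTG (the E-box bound by MYC and its relatives), TGATGNAA (the core of the CEBP-ATF element bound by ATF4), AAGATGGC (YY1), CCGGAAG (ETS factors) or GCGCATGC (NRF1).
Tars: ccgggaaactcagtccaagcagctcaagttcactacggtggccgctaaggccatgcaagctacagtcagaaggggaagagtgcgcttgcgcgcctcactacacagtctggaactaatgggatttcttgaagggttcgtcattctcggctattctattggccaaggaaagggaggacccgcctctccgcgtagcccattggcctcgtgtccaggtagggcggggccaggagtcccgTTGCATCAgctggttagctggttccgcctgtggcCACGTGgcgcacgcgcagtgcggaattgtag
Iars: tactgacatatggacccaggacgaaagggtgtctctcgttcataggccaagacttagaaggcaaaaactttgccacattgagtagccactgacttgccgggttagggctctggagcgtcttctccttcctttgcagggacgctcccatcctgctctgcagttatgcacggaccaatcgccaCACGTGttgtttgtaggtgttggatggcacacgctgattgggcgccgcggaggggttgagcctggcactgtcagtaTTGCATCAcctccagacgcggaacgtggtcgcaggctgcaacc
Gars: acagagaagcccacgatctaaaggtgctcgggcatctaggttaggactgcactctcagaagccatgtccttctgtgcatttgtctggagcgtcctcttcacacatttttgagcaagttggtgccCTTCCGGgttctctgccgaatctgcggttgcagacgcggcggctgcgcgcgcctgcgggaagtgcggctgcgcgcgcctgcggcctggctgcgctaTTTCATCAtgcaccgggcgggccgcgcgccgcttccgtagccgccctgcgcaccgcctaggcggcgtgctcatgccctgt
Qars: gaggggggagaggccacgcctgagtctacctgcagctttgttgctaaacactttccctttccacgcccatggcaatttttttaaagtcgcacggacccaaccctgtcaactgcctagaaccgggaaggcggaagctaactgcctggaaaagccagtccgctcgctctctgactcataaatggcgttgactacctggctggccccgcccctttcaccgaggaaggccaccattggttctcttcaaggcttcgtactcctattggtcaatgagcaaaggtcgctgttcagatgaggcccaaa
Cars2: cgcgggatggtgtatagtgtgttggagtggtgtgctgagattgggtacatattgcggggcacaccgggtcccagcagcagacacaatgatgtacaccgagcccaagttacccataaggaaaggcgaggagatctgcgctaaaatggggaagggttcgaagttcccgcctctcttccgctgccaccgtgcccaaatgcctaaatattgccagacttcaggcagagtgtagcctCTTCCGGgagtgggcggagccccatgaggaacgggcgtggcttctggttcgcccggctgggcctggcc
Aimp1: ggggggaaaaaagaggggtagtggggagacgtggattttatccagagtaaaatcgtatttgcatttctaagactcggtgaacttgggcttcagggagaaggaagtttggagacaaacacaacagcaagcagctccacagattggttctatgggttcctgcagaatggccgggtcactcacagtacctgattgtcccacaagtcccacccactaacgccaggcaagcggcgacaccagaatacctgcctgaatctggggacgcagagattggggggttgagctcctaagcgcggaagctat

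Tars and Iars each held CACGTG and TTGCATCA, the latter being TGATGNAA read on the opposite strand. Gars held TTTCATCA, a match to the same motif, and CTTCCGG, which is CCGGAAG on the opposite strand and is also the match in Cars2. Qars and Aimp1 held none of the 5 letter strings in this window. A promoter was found for 30 of the 39 genes and not for Cars, Hars, Lars, Nars, Rars, Vars, Wars, Hars2 and Pars2. TGATGNAA was in 5 of the 30, Aars, Gars, Iars, Tars and Yars, all cytosolic (5 of 13) with 0 of 14 mitochondrial, where 3.97% of 32851 promoters of the same length held it. Of the cytosolic genes with a promoter, 4 of 6 called lower and 1 of 7 not called had this match, beside 2 of 6 and 2 of 7 for CACGTG, 1 of 6 and 4 of 7 for CCGGAAG, 0 of 6 and 1 of 7 for AAGATGGC, and 0 of either for GCGCATGC.

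CACGTG was in 5 of 30 (Aars, Farsb, Iars, Tars and Ears2) against 7.15% of all promoters, and CCGGAAG in 10 of 30 against 8.86%, spread over cytosolic (5 of 13), mitochondrial (4 of 14) and scaffold genes (Aimp2). AAGATGGC was in Farsa, Aars2, Wars2, Yars2 and Eef1e1, none of them called, against 2.75% of all promoters, and GCGCATGC was in Rars2, Vars2 and Wars2 against 2.71%. These matches describe letters in a window, and no factor's binding was measured.

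Other genes that handle charged tRNA included 3 of 17 called lower and 0 higher (median log2 fold change −0.25). Over all genes tested, 8.49% were called lower and 5.47% higher. Xpot, which exports tRNA from the nucleus, lay at 140.2, 136, 142 and 147 CPM in the Vehicle and 72.9, 89.7, 80.9 and 99.6 CPM in the AG636 samples. Eef1d, a subunit of the elongation factor complex that reloads the carrier of aminoacyl-tRNA, lay at 257, 236, 240.2 and 259.9 CPM against 133, 180.4, 167 and 176 CPM. The groups were far apart in both. Xpot fell by 0.73 on the log2 scale (SE 0.10, limma-voom adjusted p = 0.0024), more than any synthetase, Eef1d by 0.60 (SE 0.10, adjusted p = 0.0053) and Eef1g, of the same complex, by 0.52 (SE 0.15, adjusted p = 0.0433). The Eef1g groups overlapped, and its call was kept only without AG636 2 (adjusted p = 0.0043), with 0.0510 to 0.112 without each other sample. Tarsl2, a relative of Tars, was at −0.18 and did not pass. Of the 8 tested genes of the amino acid response, 1 was called lower and 0 higher, a count near those shares. Phgdh of serine synthesis fell (log2 fold change −1.04, SE 0.24, limma-voom adjusted p = 0.0181). None of the others passed, Sesn2 and Ddit3 having positive log2 fold changes (0.71 and 0.39) and the rest negative ones. Phgdh lay at 80.1, 82.7, 62.5 and 58.7 CPM in the Vehicle and 23.9, 25.4, 57.9 and 38.7 CPM in the AG636 samples, AG636 3 being nearest to the Vehicle samples. Its call was lost without Vehicle 1 (adjusted p = 0.0561), Vehicle 2 (0.0526) or AG636 1 (0.0516).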

How the data were processed

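RNA was measured in 8 samples, 4 Vehicle and 4 AG636, with a QuantSeq 3′ mRNA kit, which reads the 3′ end of polyadenylated transcripts. The authors deposited a table of unnormalized read counts with a row for each gene. Per the submitters' processing notes, the authors used FastQC, cutadapt 1.9.1, HISAT2 2.0.4 and featureCounts of Subread 1.5.0-p3 with GRCm38 (mm10), and the study's methods give other versions for some tools. The handling of strand and of reads that map to several places was not given in the sources used here, so counts of overlapping genes and of near-identical copies are uncertain.

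Samples were grouped by their titles. No replicates agreed within sampling noise. Genes kept by filterByExpr (minimum count 10) were put on TMM-scaled library sizes (edgeR 4.0.16), and limma-voom (limma 3.58.1 in R 4.3.3) gave the two-sided test of AG636 minus Vehicle, with Benjamini-Hochberg adjustment over the 10911 genes tested and a threshold of 0.05. CPM are TMM-scaled, errors are SDs over 4 samples unless an SE is named, and intervals are at 95%. Log2 CPM used a prior count of 2. A level of 3 counts, the floor of detection, corresponds to 0.434 to 0.479 CPM. The intervals come from the limma-voom fit and carry the spread between samples, whereas the floor reflects counting alone. Of 54838 genes, 54723 had a symbol in the name table, where Mars1 is listed as Mars. Simulated data held 10814 genes tested, with 197 of 200 genes changed by 1 log2 unit among them. There limma-voom recovered 76.1%, and 3.23% of its calls were false. Whether these shares hold at the smaller log2 fold changes of the 39 genes (−0.61 to 0.12) was not tested.

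Values per sample are given for genes past the threshold, the scaffold proteins and the partners of the genes with the smallest p, and for a few others chosen after their values were seen (Cars, Kars and Atf4). The genes, the lists (compartment, complex, structural class, ATF4 response, tRNA handling, markers) and the tests were chosen with earlier results of these data known. Promoters came from RefSeq (GRCm38.p6) and were searched on both strands. Amino acid sequences were not used here. The alternatives were edgeR's quasi-likelihood test, DESeq2 (1.42.0), sample quality weights, other scaling and filters, the replicate number as a block, and samples left out. The removal of genes of the mitochondrial chromosome was added after seeing the data.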

Additional observations from a re-analysis of the deposited data

Results flagged for a closer look

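In 9 of 84 combinations of a gene or gene group with a treatment group, 1 sample stood apart from the other 3 (its gap to the nearest, over the range, was above Dixon's 95% value), where chance gives about 4.2, and 5 of the 9 were in Vehicle 4. Vehicle 4 was high for Aars (log2 CPM 6.70, others 6.00 to 6.07), Cars (5.76, others 5.04 to 5.07), Lars (7.53, others 7.22 to 7.26), Mars1 (7.08, others 6.67 to 6.71) and the mean of the 20 cytosolic synthetases (7.09, others 6.89 to 6.91).

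Vehicle 2 was low for Nars2 (log2 CPM 3.13, others 3.63 to 3.67) and for the mean of the scaffold genes (6.47, others 6.63 to 6.65). Among the AG636 samples, AG636 1 was low for Sars (6.72, others 7.04 to 7.07) and AG636 4 was high for Cars2 (5.28, others 5.02 to 5.05).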

How the results depend on the processing

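The 13 members called lower became 7 with library size alone, 6 without Vehicle 4 and AG636 3 together, and 6 to 13 with any 1 sample left out; 9 to 14 were called under each other alternative, and 0 were called higher under any. The 10 cytosolic calls became 6 with library size alone and 6 without Vehicle 4 and AG636 3 (6 to 10 with 1 sample left out). The 2 mitochondrial calls became 1 with quality weights, RLE factors, library size alone, no filter, the replicate block or no mitochondrial-chromosome genes, and 0 without Vehicle 4 and AG636 3 (0 to 2 with 1 sample left out). The scaffold call became 0 with RLE factors, library size alone, no filter, at least 10 counts in every sample, no mitochondrial-chromosome genes, or without Vehicle 4 and AG636 3 (0 to 1 with 1 sample left out). The cause was not tested, except that leaving out samples leaves fewer. Genes called, 1523 in all, were 688 (without Vehicle 3) to 1706 (without AG636 3) with 1 sample left out.

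The cytosolic median of −0.40 was −0.22 without Vehicle 4 and AG636 3 (−0.42 to −0.28 with 1 sample left out), and the scaffold median of −0.32 was −0.24 without them, −0.25 with library size alone and −0.40 to −0.23 with 1 sample left out. The mitochondrial median of −0.12 was −0.05 with library size alone, −0.08 without Vehicle 4 and AG636 3, −0.20 without AG636 2 and −0.20 to −0.09 over all single samples left out. Of 702 values over the 39 genes and 18 alternatives, 575 kept their direction and side of the threshold, 70 missed it, 8 newly passed it and 49 changed sign.

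All changes of sign were in genes that were not called. With samples left out (any 1, or Vehicle 4 and AG636 3), the log2 fold change ran from −0.033 to 0.083 for Aars2, −0.038 to 0.020 for Aimp1, −0.047 to 0.13 for Cars2, −0.0078 to 0.22 for Dars, −0.084 to 0.085 for Ears2, −0.23 to 0.19 for Fars2, −0.15 to 0.038 for Hars2, −0.13 to 0.17 for Kars, −0.17 to 0.12 for Nars2 and −0.0025 to 0.30 for Sars2. DESeq2 gave 0.015 for Ears2, 0.050 for Fars2, 0.0054 for Nars2 and 0.0048 for Aimp1. RLE factors gave 0.0026 for Ears2 and 0.0047 for Aimp1, at least 10 counts in every sample 0.014 and 0.016, and removal of mitochondrial-chromosome genes 0.0021 and 0.0045. Library size alone gave 0.044 for Nars2, 0.056 for Aimp1, 0.056 for Ears2 and 0.034 for Fars2. edgeR's test gave −0.0038 for Cars2 and 0.032 for Fars2, no filter −0.0068 for Cars2 and quality weights −0.058 for Kars.

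The replicate numbers gave no clear sign of pairing: the correlation of the deviations of same-numbered samples was −0.14, 0.0135, 0.203 and 0.135, and 3 of 8 samples correlated best with their own number. Vehicle 3 and AG636 3 matched each other best (0.203), and with 4 samples in a group this check cannot exclude a pairing. With the replicate block, 1446 genes were called, 13 members were called lower and 1 mitochondrial gene was, and Cars2 was at −0.0037 and Fars2 at 0.018.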
